A study of Mus musculus with 15 samples.

Results

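The 10 genes described here encode 4 subunits of the transcription factor NF-κB (Nfkb1, Rela, Nfkb2 and Relb), 3 proteins that restrain it (Nfkbia, Nfkbie and Tnfaip3), its nuclear partner Bcl3, and the TNF receptors Tnfrsf1a and Tnfrsf1b. They were chosen by symbol, and each was found as 1 gene in both deposited tables, so that they are 10 of the 36264 genes with values in the miR-181 table and 10 of the 36257 in the GFP table. Transcript abundance was measured by polyA RNA sequencing of dissected substantia nigra, the midbrain region that holds dopamine neurons, in 15 libraries from 8 C57Bl/6J mice. The miR-181 injected group (n = 3 libraries) was the side that had received 1.65e10 vector genomes (vg) of AAV-hSYN1-miR-181, an adeno-associated virus carrying a microRNA, 3 weeks earlier. Its uninjected group (n = 3) was the other side of the same mice. The GFP injected group (n = 4) had received 1e10 vg of AAV-hSYN1-GFP, which carries green fluorescent protein, also 3 weeks earlier, and its uninjected group (n = 5) was the other side of those mice plus mouse 5, which gave an uninjected library only. The hSYN1 promoter drives expression in neurons. No group of mice without any injection was analysed here, so the uninjected sides come from animals that carried a vector on the other side, and no age is given for any group. Libraries of each vector were prepared, sequenced and normalized apart from those of the other, so effects of vector, dose, sequencer and preparation cannot be told apart.

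NF-κB is a family of dimers that inhibitor proteins of the IκB type hold in the cytoplasm. When TNF binds its receptors, a kinase complex marks the inhibitor for destruction and the dimer enters the nucleus. Among the genes it then induces are those of its own inhibitors, which close the response again, and of several of its own subunits. In the brain the pathway is best known in microglia and astrocytes, which produce cytokines and chemokines under its control, and it also acts in neurons and in leukocytes that enter the tissue. RNA abundance measures neither the destruction of inhibitors nor entry into the nucleus.

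Values are abundances in TPM (a read share corrected for transcript length) divided by 1 size factor per library, called units below. Their sums ran between 970505 and 1040288 units per library, between 15022 and 15563 genes stood at 1 unit or more, and the depth of single libraries is unknown. All 7 dopamine neuron markers were detected, with sums of 1012 to 1833 units on the miR-181 injected sides and 1347 to 1780 on their uninjected sides, and of 2105 to 2481 on the GFP injected sides and 1638 to 2604 on theirs. The miR-181 and GFP sets differed in serotonin neuron markers, whose summed level lay between 39.5 and 94.4 units in the 6 libraries of the miR-181 mice and between 1.14 and 2.76 in the 9 libraries of the GFP mice. The libraries of GFP mouse 1 stood apart, with the pituitary hormone transcripts Prl and Gh at 0.227% of all units on the injected side and 4.70% on the uninjected side, against at most 0.0013% in any other library. Every one of the 10 genes stood above 1 unit in every library, so the filter on low values kept them all in both sets. In bulk tissue, a change in the number of cells of a type and a change in RNA per cell cannot be told apart.

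The 4 mature miR-181-5p sequences of the mouse are shown because the vector carries this microRNA and a target site is read through its seed, bases 2 to 8, which is in capitals. The labels do not say which of them the vector encodes. They are RefSeq sequences (GRCm38.p6), and all 4 share 1 seed.
mmu-miR-181a-5p: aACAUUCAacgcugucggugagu
mmu-miR-181b-5p: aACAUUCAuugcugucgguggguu
mmu-miR-181c-5p: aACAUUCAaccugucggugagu
mmu-miR-181d-5p: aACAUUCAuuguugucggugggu

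Of the 10 genes, 1 held a match to all 7 bases of this seed in its longest annotated 3′ UTR (10%), against 2774 of 14335 tested genes with such a UTR (19.4%). With matches to bases 2 to 7 followed by an A counted as well, it was the same 1 of 10, against 3561 of 14335 (24.8%). The match was in Relb, at base 120 of 1075 of its UTR. The 29 bases around it (chr7:19615640-19615668, minus strand, GRCm38) are shown with the match in capitals.
Relb 3′ UTR site: ggaggtcgacaTGAATGTcgtcaggatct
Relb was not lower on the side given miR-181. Its values are given with the other subunits below, and its estimated log2 change was 0.79 ± 0.21 (SE).

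Promoter windows were searched because the family is known to induce several of its own genes. A RefSeq window (GRCm38.p6) of 300 bases, 250 before and 50 after an annotated start, was at hand for 8 of the 10 genes; Nfkb1 and Relb were not among them. The κB consensus decamer, the 10-base motif bound by NF-κB, was looked for on both strands, and it was the one motif searched. It was present in a window of 5 of the 8 genes (62.5%), namely Nfkb2, Nfkbia, Nfkbie, Tnfaip3 and Bcl3, against 1388 of 27025 genes (5.14%) and 1480 of 32851 windows (4.51%) in the whole table. The windows of Rela, Tnfrsf1a and Tnfrsf1b held no match. Below are a window with a match for each of these 5 genes, with matches in capitals, and, for contrast, the window of Tnfrsf1b, the gene that passed the test with both vectors. All are written in the direction of transcription.
Nfkb2 promoter (chr19:46304487-46304786, plus strand): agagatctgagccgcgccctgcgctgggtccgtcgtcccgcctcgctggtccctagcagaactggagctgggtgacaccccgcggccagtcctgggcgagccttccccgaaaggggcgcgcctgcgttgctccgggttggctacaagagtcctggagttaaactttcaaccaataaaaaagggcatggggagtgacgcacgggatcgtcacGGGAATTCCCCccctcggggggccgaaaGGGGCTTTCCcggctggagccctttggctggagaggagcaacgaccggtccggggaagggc
Nfkbia promoter (chr12:55492598-55492897, minus strand): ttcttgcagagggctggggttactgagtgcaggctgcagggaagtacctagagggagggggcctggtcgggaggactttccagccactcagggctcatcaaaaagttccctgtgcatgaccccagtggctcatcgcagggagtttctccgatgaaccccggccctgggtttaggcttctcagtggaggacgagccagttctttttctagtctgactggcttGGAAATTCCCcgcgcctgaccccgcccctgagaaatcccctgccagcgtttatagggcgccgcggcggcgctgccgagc
Nfkbie promoter (chr17:45555450-45555749, plus strand): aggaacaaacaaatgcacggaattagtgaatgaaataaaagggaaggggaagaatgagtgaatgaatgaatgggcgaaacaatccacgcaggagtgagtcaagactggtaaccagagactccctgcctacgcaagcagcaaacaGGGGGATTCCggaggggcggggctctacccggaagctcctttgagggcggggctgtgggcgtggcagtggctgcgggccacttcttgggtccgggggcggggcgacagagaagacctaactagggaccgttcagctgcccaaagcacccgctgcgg
Tnfaip3 promoter (chr10:19015361-19015660, minus strand): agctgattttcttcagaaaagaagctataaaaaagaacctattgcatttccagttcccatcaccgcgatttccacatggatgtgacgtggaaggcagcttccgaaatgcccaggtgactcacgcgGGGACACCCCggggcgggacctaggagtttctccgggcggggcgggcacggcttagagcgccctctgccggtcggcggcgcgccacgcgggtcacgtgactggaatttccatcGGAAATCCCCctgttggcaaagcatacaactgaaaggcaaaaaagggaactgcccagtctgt
Bcl3 promoter (chr7:19822706-19823005, minus strand): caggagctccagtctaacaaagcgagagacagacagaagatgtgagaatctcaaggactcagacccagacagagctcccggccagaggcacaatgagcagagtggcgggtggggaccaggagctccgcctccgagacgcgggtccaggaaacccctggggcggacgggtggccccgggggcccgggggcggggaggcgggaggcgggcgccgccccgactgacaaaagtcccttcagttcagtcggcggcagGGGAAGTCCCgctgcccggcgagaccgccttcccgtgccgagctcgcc
Tnfrsf1b promoter (chr4:145246821-145247120, minus strand): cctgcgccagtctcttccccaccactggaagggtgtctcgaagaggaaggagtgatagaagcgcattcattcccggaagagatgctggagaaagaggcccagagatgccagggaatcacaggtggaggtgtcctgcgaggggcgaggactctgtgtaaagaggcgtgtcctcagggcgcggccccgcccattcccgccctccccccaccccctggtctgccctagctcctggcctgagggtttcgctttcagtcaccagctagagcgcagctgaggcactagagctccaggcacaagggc

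In Nfkb2 the first run of capitals is a pair of overlapping matches that begin at bases -39 and -38 from the start, and a further match begins at -11. The match in Nfkbia begins at -29, that in Nfkbie at -106, those in Tnfaip3 at -125 and -12, and that in Bcl3 at 2, just inside the transcript. These matches are a description of the letters in the windows. No binding of NF-κB was measured.

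**Figure D1:**
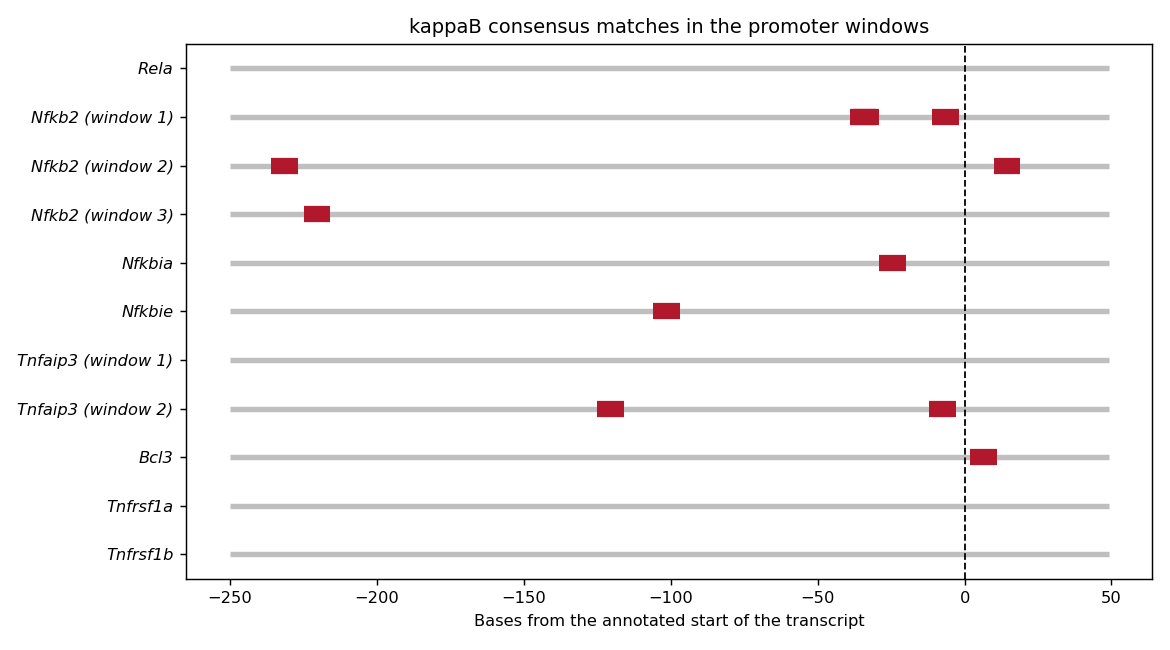
Positions of κB consensus decamers (red) in the promoter windows of 8 of the 10 genes; the horizontal axis gives bases from the annotated start of the transcript (dashed line), and genes with several annotated starts have a bar for each window. Matches lie in windows of Nfkb2, Nfkbia, Nfkbie, Tnfaip3 and Bcl3, and none in those of Rela, Tnfrsf1a and Tnfrsf1b.

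The first comparison asked how transcripts on the side given miR-181 differed from those on the other side of the same 3 mice. All 10 genes had an estimate above 0, with a median log2 change of 0.89 against 0.00 for all genes tested. The 3 that rose were Tnfrsf1b, Tnfrsf1a and Bcl3 (limma, adjusted p under 0.05 over all genes), and none was called lower. That is 3 of 10, where 4.39% of the 15453 genes tested were called higher and 1.49% lower. At an unadjusted p under 0.05 there were 10 of 10, against 3631 of all genes tested. Every injected library stood above every uninjected one for 9 of the 10 genes, all but Nfkbia, as it did for 16% of all genes.

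The second comparison asked the same of GFP, a vector that carries no microRNA. Tnfrsf1b rose and the other 9 did not pass the test, so 1 of 10 was called where 1.34% of the 15274 genes tested were called higher and 0.0131% lower. The median log2 change was 0.26, with 6 of 10 at an unadjusted p under 0.05 against 1454 of all genes. Tnfrsf1b was also the one gene of the 10 whose injected GFP libraries all stood above the uninjected ones, which held for 3.29% of genes.

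**Figure D2:**
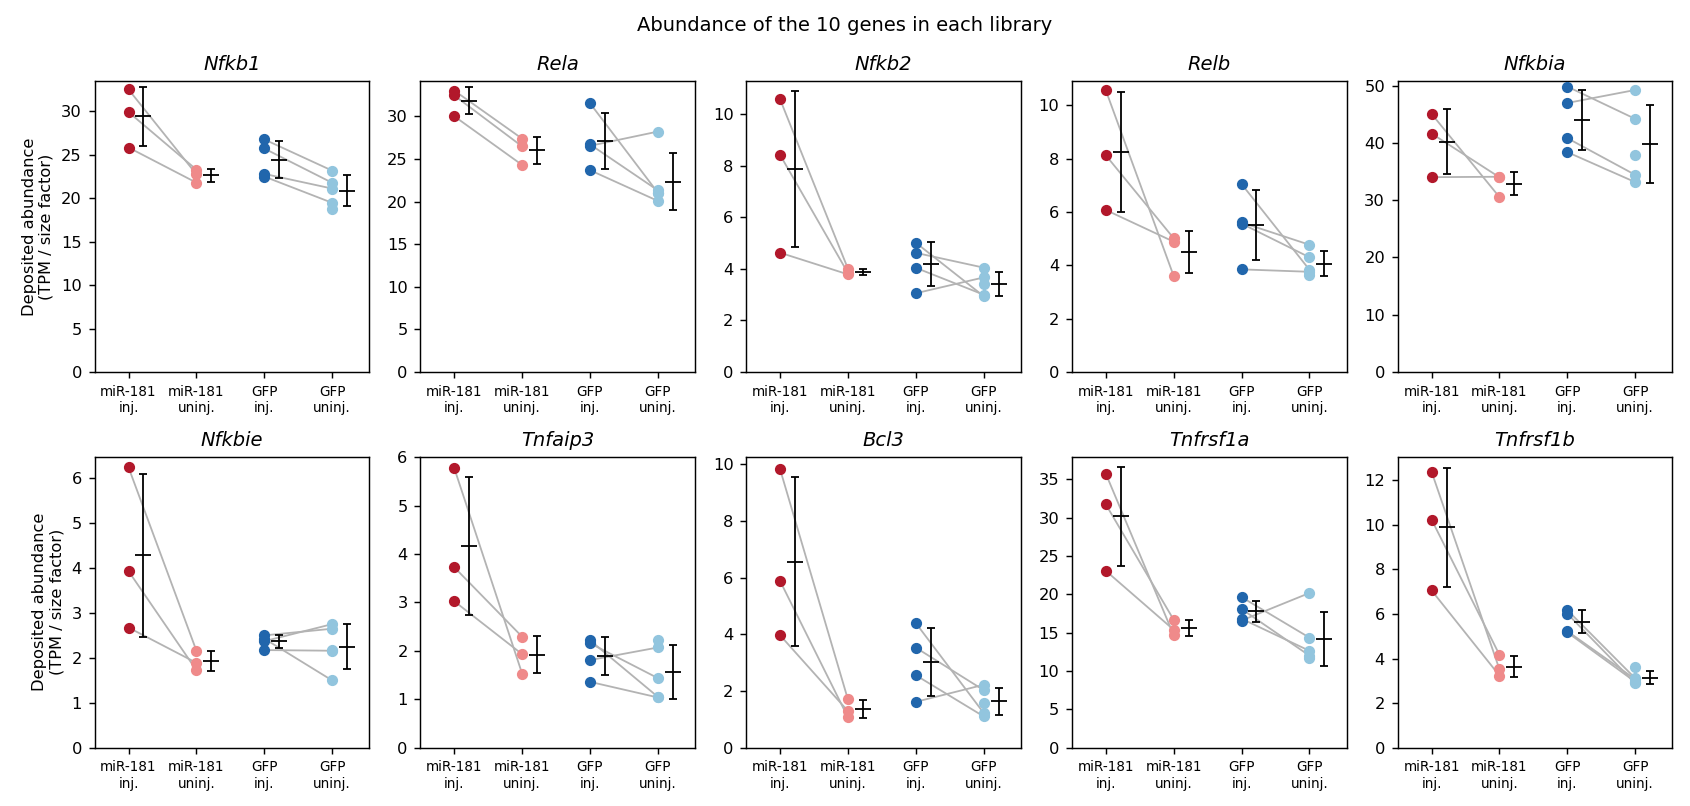
Abundance (vertical axis, TPM divided by a size factor) of the 10 genes in each of the 15 libraries, with miR-181 injected and uninjected sides in red and GFP injected and uninjected sides in blue. Points are libraries, grey lines join the sides of a mouse, and black marks are the mean ± SD; every miR-181 injected library lies above every uninjected one for 9 genes, all but Nfkbia.

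Among the subunits, the canonical pair is made by Nfkb1, whose precursor p105 is cut to p50, and Rela, whose protein p65 carries the activation domain. Nfkb1 (ENSMUSG00000028163, chr3:135584655-135691547, minus strand) stood at 25.8, 32.5 and 29.9 units on the miR-181 injected sides of mice 1, 2 and 3, against 21.8, 22.8 and 23.3 on their uninjected sides. The lowest injected value lay above the highest uninjected one, by little in mouse 1. The estimated log2 change was 0.37 ± 0.09 (SE), and it did not pass the test (limma adjusted p = 0.0644). With GFP, the injected sides of mice 1 to 4 had 25.7, 22.5, 22.8 and 26.8 units of Nfkb1, against 21.8, 19.5, 21.1, 23.2 and 18.8 on the uninjected sides of mice 1 to 5. Each injected side was above its own uninjected side, while the groups overlapped (log2 0.22 ± 0.08; limma adjusted p = 0.348).

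Rela (ENSMUSG00000024927, chr19:5637483-5648130, plus strand) stood at 32.4, 33.0 and 30.0 units on the miR-181 injected sides, against 26.5, 27.4 and 24.3 on the uninjected sides. The groups were apart and the change was of like size in the 3 mice (log2 0.28 ± 0.07; limma adjusted p = 0.0617). The GFP injected sides had 26.5, 31.5, 23.7 and 26.7 units of Rela, against 28.2, 21.0, 20.1, 21.3 and 21.0 on the uninjected sides. The uninjected side of GFP mouse 1 was well above the other 4 and made the groups overlap. The estimate with GFP was 0.28 ± 0.11 (limma adjusted p = 0.433), or 0.37 (adjusted p = 0.173) without either library of that mouse.

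The alternative pair is made by Nfkb2, whose precursor p100 is cut to p52, and Relb, the partner it holds and releases. Nfkb2 (ENSMUSG00000025225, chr19:46304320-46312385, plus strand) stood at 4.63, 10.6 and 8.43 units on the miR-181 injected sides, against 3.79, 4.01 and 3.85 on the uninjected sides. Mouse 1 was barely above the uninjected range while mice 2 and 3 were far above it, and the uninjected sides lay close together. The log2 change was 0.86 ± 0.27 and did not pass (limma adjusted p = 0.116). The GFP injected sides had 4.63, 5.02, 3.06 and 4.05 units of Nfkb2, against 4.05, 2.94, 3.67, 3.00 and 3.42 on the uninjected sides. These groups overlapped, and in mouse 3 the injected side was the lower (log2 0.25 ± 0.15; limma adjusted p = 0.679).

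Relb (ENSMUSG00000002983, chr7:19606217-19629438, minus strand), the gene with the seed match, stood at 6.07, 10.6 and 8.12 units on the miR-181 injected sides, against 4.89, 3.60 and 5.01 on the uninjected sides. All 3 injected libraries were above all uninjected ones, mouse 2 by the widest margin. The log2 change was 0.79 ± 0.21 (limma adjusted p = 0.0841). With GFP, Relb stood at 5.61, 7.05, 3.85 and 5.56 on the injected sides, against 4.77, 3.84, 3.76, 4.30 and 3.62 on the uninjected sides. The injected side was the higher in each mouse, by almost nothing in mouse 3, and the groups overlapped (log2 0.38 ± 0.16; limma adjusted p = 0.474).

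Among the inhibitors, Nfkbia encodes IκBα, the classical inhibitor that is degraded within minutes of a signal and then made anew. Nfkbia (ENSMUSG00000021025, chr12:55489410-55492647, minus strand) was the most abundant of the 10 genes and stood at 34.0, 45.1 and 41.6 units on the miR-181 injected sides, against 34.1, 30.5 and 34.0 on the uninjected sides. The sides of mouse 1 hardly differed, so this was the one gene whose groups overlapped. Its log2 change of 0.28 ± 0.11 had the highest adjusted p of the 10 (limma adjusted p = 0.181). The GFP injected sides had 49.8, 40.8, 38.4 and 47.0 units, against 44.2, 34.4, 33.2, 49.2 and 37.9 on the uninjected sides. These ranges overlapped almost wholly (log2 0.15 ± 0.12; limma adjusted p = 0.754).

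Nfkbie encodes IκBε, a further inhibitor of the IκB family. Nfkbie (ENSMUSG00000023947, chr17:45555703-45563169, plus strand) stood at 2.68, 6.25 and 3.93 units on the miR-181 injected sides, against 1.89, 2.16 and 1.73 on the uninjected sides. The groups were apart, with mouse 2 highest (log2 0.91 ± 0.28; limma adjusted p = 0.111). With GFP, Nfkbie stood at 2.18, 2.50, 2.43 and 2.37 on the injected sides, against 2.16, 2.65, 1.50, 2.75 and 2.18 on the uninjected sides. The injected libraries fell inside the uninjected range, and the estimate was 0.08 ± 0.17 (limma adjusted p = 0.913), near 0 and slightly below it without the uninjected library of mouse 3 (-0.03).

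Tnfaip3 encodes A20, an enzyme that edits ubiquitin chains on signalling proteins upstream of NF-κB and so damps TNF signals. Tnfaip3 (ENSMUSG00000019850, chr10:19000910-19015657, minus strand) stood at 3.02, 5.77 and 3.73 units on the miR-181 injected sides, against 1.93, 1.53 and 2.29 on the uninjected sides. The injected sides were all higher, and mouse 2 paired the highest injected with the lowest uninjected value (log2 0.92 ± 0.25; limma adjusted p = 0.0828). The GFP injected sides had 2.22, 1.81, 1.36 and 2.16 units of Tnfaip3, against 1.05, 2.07, 1.04, 1.44 and 2.22 on the uninjected sides. The groups overlapped, and mouse 2 was lower on its injected side (log2 0.24 ± 0.23; limma adjusted p = 0.800).

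Bcl3 is an atypical IκB protein that sits in the nucleus on p50 or p52 dimers and can activate or repress their targets. Bcl3 (ENSMUSG00000053175, chr7:19808462-19822770, minus strand) stood at 3.97, 9.83 and 5.88 units on the miR-181 injected sides, against 1.29, 1.71 and 1.08 on the uninjected sides. Even the lowest injected value was above every uninjected one by a wide margin. Bcl3 rose by 1.85 ± 0.31 log2 units (SE, n = 3 per side; limma adjusted p = 0.0229), the largest change among the 10 genes, with means of 6.56 ± 2.99 on the injected sides and 1.36 ± 0.321 on the uninjected sides (SD). With GFP, Bcl3 stood at 3.53, 4.40, 1.62 and 2.56 on the injected sides, against 2.03, 1.23, 2.22, 1.11 and 1.58 on the uninjected sides. Mice 1, 2 and 4 were higher on the injected side and mouse 3 was lower there, and the change did not pass (log2 0.69 ± 0.27; limma adjusted p = 0.423). Bcl3 also had the lowest mean log count of the 10 genes in the authors' deposited table. Read as a natural log and turned back, it was 23.5 estimated counts in the miR-181 table and 8.08 in the GFP table.

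Of the receptors, Tnfrsf1a encodes TNFR1, which most cell types carry and which signals to NF-κB and to cell death. Tnfrsf1a (ENSMUSG00000030341, chr6:125349362-125362484, plus strand) stood at 23.1, 35.7 and 31.7 units on the miR-181 injected sides, against 15.4, 14.7 and 16.7 on the uninjected sides. The groups were clearly apart and the uninjected sides close together. Tnfrsf1a rose by 0.91 ± 0.15 log2 units (limma adjusted p = 0.0235), with means of 30.2 ± 6.47 on the injected sides and 15.6 ± 1.02 on the uninjected sides (SD, n = 3 each). With GFP, Tnfrsf1a stood at 16.6, 19.6, 16.8 and 18.1 on the injected sides, against 20.2, 14.4, 12.6, 12.01 and 11.7 on the uninjected sides. The uninjected side of mouse 1, the library with the most pituitary transcripts, was the highest of all 9. The change with GFP did not pass (log2 0.34 ± 0.14; limma adjusted p = 0.492); without that 1 library it was 0.47 (adjusted p = 0.0296), and without both libraries of mouse 1 it was 0.50 (adjusted p = 0.0562).

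Tnfrsf1b encodes TNFR2, a receptor of narrower distribution that lacks the death domain and in brain is carried largely by microglia. Tnfrsf1b (ENSMUSG00000028599, chr4:145213463-145246870, minus strand) stood at 7.06, 12.4 and 10.2 units on the miR-181 injected sides, against 3.24, 3.52 and 4.17 on the uninjected sides. No uninjected library came near an injected one. Tnfrsf1b rose by 1.30 ± 0.21 log2 units (limma adjusted p = 0.0194), with means of 9.89 ± 2.68 on the injected sides and 3.64 ± 0.478 on the uninjected sides (SD, n = 3 each). With GFP, Tnfrsf1b stood at 5.23, 6.18, 5.18 and 6.02 on the injected sides, against 3.08, 3.12, 2.96, 2.89 and 3.64 on the uninjected sides. The groups were again apart, and Tnfrsf1b rose by 0.76 ± 0.11 log2 units (limma adjusted p = 0.00826). Without both libraries of GFP mouse 1 the rise was 0.79 (limma adjusted p = 0.0386). In a fit with a term for mouse, which also leaves out the unpaired library of mouse 5, the estimate was 0.81 and the call was lost (limma adjusted p = 0.0540). Without that library and with no term for mouse, it was 0.81 as well and passed (limma adjusted p = 0.0145).

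The calls with miR-181 rest on few libraries. Tnfrsf1b, Tnfrsf1a and Bcl3 all lost their call, with their direction kept, without the injected library of mouse 3 or without any 1 of the 3 uninjected libraries (limma adjusted p between 0.0654 and 0.110). Without the injected library of mouse 1, the one nearest the uninjected sides, 9 of the 10 genes were called higher, all but Rela. Calls among all genes grew in that fit as well, with 1210 of 15436 called higher, against 678 of 15453 with every library. Without the filter on low values none passed (limma adjusted p between 0.0588 and 0.0642). Without the intensity trend Tnfrsf1a lost its call (limma adjusted p = 0.0548) and the other two kept theirs, and with mouse as a block the same 3 passed.

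**Figure D3:**
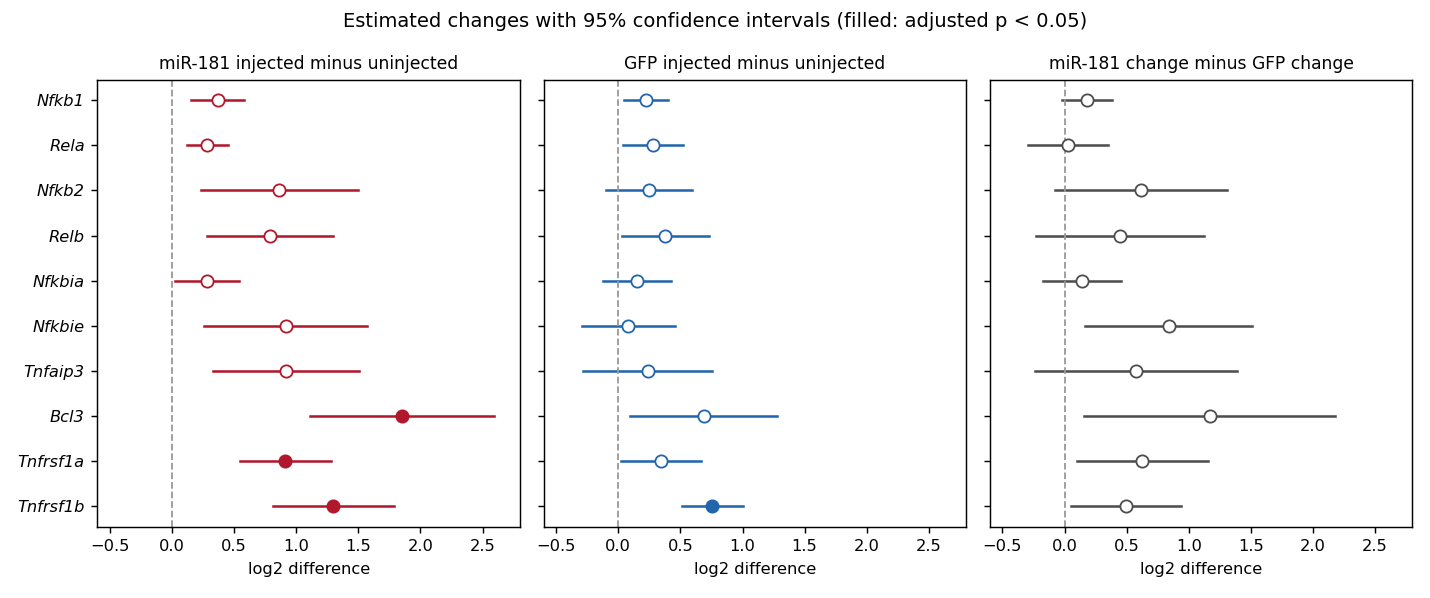
Estimated log2 differences (horizontal axis) of the 10 genes with 95% confidence intervals, for miR-181 injected minus uninjected sides (left, 3 libraries a side), GFP injected minus uninjected sides (middle, 4 and 5 libraries) and the per-mouse miR-181 change minus the GFP change (right, 3 and 4 mice). Filled points passed an adjusted p of 0.05: Bcl3, Tnfrsf1a and Tnfrsf1b on the left, Tnfrsf1b in the middle, none on the right.

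The third comparison set the change within each miR-181 mouse against that within each GFP mouse, which removes the difference in level between the separately normalized tables. None of the 10 genes passed (limma, adjusted p under 0.05), where 1 of 15903 genes (0.00629%) did, and none passed without GFP mouse 1 either. At an unadjusted p under 0.05 there were 4 of 10, Nfkbie, Bcl3, Tnfrsf1a and Tnfrsf1b, against 2399 of all genes. Within the miR-181 mice 1, 2 and 3, Tnfrsf1b changed by 1.02, 1.68 and 1.20 on the log2 scale, against 0.68, 0.88, 0.71 and 0.94 within GFP mice 1 to 4. The smallest of the miR-181 changes exceeded the largest of the GFP ones. The same held narrowly for Nfkb1, at 0.240 in miR-181 mouse 1 against 0.235 in GFP mouse 1. For how many of all genes this held was not counted. The difference for Tnfrsf1b was 0.49 ± 0.19 (95% interval 0.05 to 0.93) and did not pass (limma adjusted p = 0.286). For Bcl3 the changes were 1.32, 2.23 and 2.02 in the miR-181 mice, against 0.67, 1.50, -0.36 and 0.93 in the GFP mice. These overlapped through GFP mouse 2, and the difference was 1.17 ± 0.44 (95% interval 0.16 to 2.18; limma adjusted p = 0.276). The differences for Nfkbie and Tnfrsf1a were 0.84 ± 0.29 (95% interval 0.16 to 1.51) and 0.63 ± 0.23 (95% interval 0.10 to 1.15). Rela had the smallest difference, 0.03 ± 0.14 (95% interval -0.30 to 0.35), with changes of 0.29, 0.27 and 0.30 in the miR-181 mice, against -0.09, 0.57, 0.23 and 0.32 in the GFP mice. The other 5 estimates lay between 0.14 and 0.61, and each of their intervals included 0.

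The difference between sides was not of like size in the 3 miR-181 mice. The median log2 change over the 10 genes was 0.35 in mouse 1, 1.32 in mouse 2 and 0.78 in mouse 3, against 0.19, 0.51, 0.22 and 0.36 in GFP mice 1 to 4. Mouse 2 had the largest change for 9 of the 10 genes and mouse 1 the smallest for 9 of the 10. The exception to the first was Rela, whose change was nearly the same in all 3. In each GFP mouse the injected side was higher for 8 of the 10 genes. The exceptions were Rela and Tnfrsf1a in mouse 1, Nfkbie and Tnfaip3 in mouse 2, Nfkb2 and Bcl3 in mouse 3, and Nfkbia and Nfkbie in mouse 4.

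Summed markers of microglia, of T and NK cells, of B and plasma cells and of astrocytes followed the same order across the injected sides of the miR-181 mice, lowest in mouse 1 and highest in mouse 2. The endothelial sum had this order too, at 109, 156 and 152 units in mice 1, 2 and 3, against 107, 136 and 149 on their uninjected sides. The monocyte and macrophage sum was lowest in mouse 1 and highest in mouse 3. Of 9 microglia markers, 7 rose with miR-181 and 6 with GFP (limma, adjusted p under 0.05). The log2 estimates of the 9 were unlike, from 0.21 for P2ry12 to 2.19 for C1qa with miR-181, and from 0.13 to 1.37 for the same genes with GFP. Their summed level was 860 to 1424 units on the miR-181 injected sides, against 415 to 438 on the uninjected sides, and 555 to 705 on the GFP injected sides, against 314 to 415 on the uninjected sides. The ratio of the injected to the uninjected sum was 1.96, 3.39 and 2.51 in miR-181 mice 1, 2 and 3 and 1.70, 1.69, 1.75 and 2.04 in GFP mice 1 to 4. The ratio for Tnfrsf1b was 2.18, 3.52 and 2.45 in the same miR-181 mice and 1.70, 1.98, 1.75 and 2.08 in the same GFP mice. The receptor and the microglia sum thus had ratios close to each other in each animal, furthest apart in GFP mouse 2. Bcl3 had higher ratios than the microglia sum in each miR-181 mouse, 3.07, 5.76 and 5.47, and Rela had lower ones, 1.23, 1.21 and 1.24. In GFP mice 1 to 4 the Bcl3 ratios were 1.74, 3.58, 0.729 and 2.31, below the microglia sum in mouse 3 and above it otherwise. The Rela ratios there were 0.941, 1.50, 1.18 and 1.25, lower than the microglia sum in each mouse.

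The T and NK cell sum was 22.7 to 138 units on the miR-181 injected sides, against 4.72 to 6.61 on the uninjected sides, with ratios of 4.81, 23.9 and 7.65 in mice 1, 2 and 3. With GFP it was 13.9 to 17.7 on the injected sides, against 4.08 to 7.17 on the uninjected sides. Of the 9 T and NK markers, 6 rose with miR-181, and of the 3 abundant enough to test with GFP, 1 rose. The monocyte and macrophage sum was 130 to 198 units on the miR-181 injected sides, against 25.3 to 36.5 on the uninjected sides, and 46.2 to 125 on the GFP injected sides, against 14.4 to 21.6. In that list 3 of 6 tested markers rose with miR-181 and 1 of 5 with GFP, and Plac8 was listed at 0 in every GFP uninjected library. The B and plasma cell sum was 788 to 4570 units on the miR-181 injected sides, against 50.7 to 91.2 on the uninjected sides, with 4 of 5 tested markers called higher. With GFP it was 63.8 to 1403 on the injected sides, against 3.01 to 25.5 on the uninjected sides, with 2 of 3 called. The 5 neutrophil markers together stayed at or below 1.61 units in every library, and Ly6g was listed at 0 in all GFP libraries. Of 6 astrocyte markers, Gfap and Aqp4 rose with miR-181 and Gfap with GFP, and the sum of the 6 was 2857 to 3233 units on the miR-181 injected sides, against 2489 to 2647 on the uninjected sides. The sum of 6 neuron markers was 3355, 2803 and 3086 units on the injected sides of miR-181 mice 1, 2 and 3, against 3486, 3570 and 3639 on their uninjected sides. It was lower on the injected side in each of these mice, with ratios of 0.962, 0.785 and 0.848, nearest to 1 in mouse 1 and lowest in mouse 2, and the ratios were 0.942 to 1.01 in the GFP mice. The dopamine neuron sum had ratios of 1.03, 0.569 and 1.02 in the miR-181 mice and 0.953 to 1.31 in the GFP mice. No single neuron, oligodendrocyte or endothelial marker passed with either vector (limma, adjusted p under 0.05). The part of these cells in the changes of the 10 genes was not tested.

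**Figure D4:**
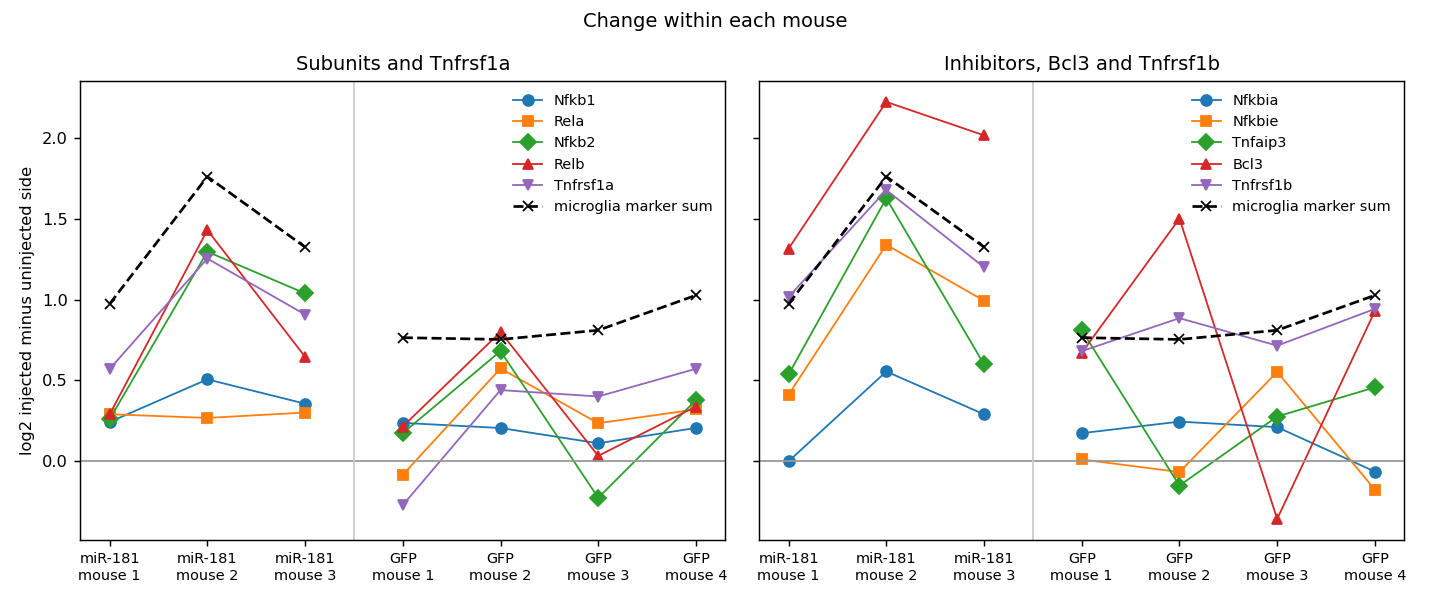
Change within each mouse (vertical axis, log2 of the injected minus the uninjected side) for the 10 genes in coloured lines and for the summed microglia markers in black dashes, with 3 miR-181 mice left and 4 GFP mice right of the vertical line. Among the 3 miR-181 mice, most genes and the microglia sum are lowest in mouse 1 and highest in mouse 2. In the miR-181 mice Rela lies between 0.27 and 0.30, and in the GFP mice between -0.09 and 0.57.

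On the length-corrected scale, which allows levels of different genes to be compared, the 10 genes fell into an abundant and a scarce group. On the miR-181 injected sides the order began with Nfkbia at 40.2 ± 5.66 units, Rela at 31.8 ± 1.60, Tnfrsf1a at 30.2 ± 6.47 and Nfkb1 at 29.4 ± 3.37 (SD, n = 3), of which the last 3 overlapped. Tnfrsf1b at 9.89 ± 2.68, Relb at 8.25 ± 2.25, Nfkb2 at 7.88 ± 3.01, Bcl3 at 6.56 ± 2.99, Nfkbie at 4.29 ± 1.81 and Tnfaip3 at 4.17 ± 1.43 followed, each overlapping the next. On the uninjected sides of the same mice, Nfkbia at 32.9 ± 2.03, Rela at 26.0 ± 1.59, Nfkb1 at 22.6 ± 0.762 and Tnfrsf1a at 15.6 ± 1.02 were each apart from the next. Relb at 4.50 ± 0.782, Nfkb2 at 3.88 ± 0.115 and Tnfrsf1b at 3.64 ± 0.478 overlapped there, as did Nfkbie at 1.93 ± 0.220, Tnfaip3 at 1.92 ± 0.382 and Bcl3 at 1.36 ± 0.321. Tnfrsf1b thus held place 5 on the miR-181 injected sides and place 7 on the uninjected sides, and Bcl3 held places 8 and 10. With GFP, Tnfrsf1b likewise held place 5 on the injected sides and place 7 on the uninjected sides.

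Of 83 other genes of the pathway, in 9 lists, 71 were abundant enough to test with miR-181, of which 19 rose and 2 fell, beside 4.39% and 1.49% of all genes. With GFP 68 were tested, of which 6 rose and none fell, beside 1.34% and 0.0131%. The difference between the vectors passed for none of 71 (limma, adjusted p under 0.05), beside 1 of 15903 genes (0.00629%), and 22 of the 71 had an unadjusted p under 0.05, beside 2399 of the 15903. The genes of these lists were not refitted under other settings.

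Among the target genes, which NF-κB is known to induce with other factors, 12 of 16 tested rose with miR-181 and 1 fell, and 6 of 14 tested rose with GFP. Tap1, a peptide transporter of antigen presentation, stood at 66.6 ± 30.1 on the injected sides, against 4.20 ± 0.325 on the uninjected sides of miR-181 mice, and at 17.0 ± 6.52 on the injected sides, against 3.96 ± 0.930 on the uninjected sides of GFP mice. It rose by 3.74 ± 0.30 log2 units with miR-181 (limma adjusted p = 0.00270) and by 1.93 ± 0.24 with GFP (adjusted p = 0.00314). Ccl5, a chemokine for T cells, rose by 5.56 ± 0.51 with miR-181 and by 4.08 ± 0.31 with GFP (limma adjusted p = 0.00374 and 0.000401). Irf1, an interferon regulatory factor, rose by 2.72 ± 0.26 with miR-181 and by 1.00 ± 0.20 with GFP (limma adjusted p = 0.00398 and 0.0376). All 3 are known to respond to interferons as well. Sod2, the mitochondrial superoxide dismutase, fell by 0.30 on the log2 scale with miR-181 (adjusted p = 0.0186 by limma), with 104, 100.4 and 96.1 units on the injected sides, against 126, 121 and 123 on the uninjected sides. All 3 injected values lay below all uninjected ones, as they did for 14.5% of all genes tested. With GFP, Sod2 stood at 122.0, 123.6, 120.7 and 123.6 on the injected sides. The GFP uninjected sides had 131.6, 133.2, 124.04, 130.4 and 124.8 units. Every GFP injected value was thus also below every uninjected one, as for 1.00% of genes. The estimate with GFP was -0.07 ± 0.03 and did not pass (limma adjusted p = 0.566). Among the genes called higher with miR-181 are the near-identical copies Bcl2a1a, Bcl2a1b and Bcl2a1d, whose reads can be shared, so that their separate values are uncertain.

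Of the ligands, 3 of 5 tested rose with miR-181 and none with GFP. Tnfsf13b, which encodes the B cell survival factor BAFF, stood at 8.85 ± 1.07 on the injected sides, against 4.87 ± 0.405 on the uninjected sides (log2 0.80 ± 0.12; limma adjusted p = 0.0177). Tnfsf10, which encodes the death ligand TRAIL, rose by 1.24 ± 0.22 and Ltb, lymphotoxin beta of lymphocytes, by 2.33 ± 0.45 (limma adjusted p = 0.0273 and 0.0343). With GFP, Tnfsf13b, Tnfsf10 and Ltb had estimates of 0.47 ± 0.15, 0.37 ± 0.22 and 0.96 ± 0.33 (limma adjusted p = 0.280, 0.670 and 0.327). At an unadjusted p under 0.05 by limma there were 4 of the 5 ligands with either vector. Tnf, Il1b and Il6 were too scarce for the test and are given here after their values were seen. Tnf stood at 1.48, 2.39 and 1.56 units on the miR-181 injected sides, against 0.0430, 0.106 and 0 on the uninjected sides. With GFP it stood at 0.450, 0.112, 0.164 and 0.210 on the injected sides and was listed at 0 in 4 of the 5 uninjected libraries. Il1b, the gene of interleukin-1β, stood at 0.657, 2.43 and 1.00 on the miR-181 injected sides, against 0.269, 0.0383 and 0.127 on the uninjected sides. With GFP it stood at 1.47, 0.662, 0.490 and 0.519 on the injected sides and was listed at 0 in all 5 uninjected libraries. For Tnf and Il1b every injected library lay above every uninjected one with either vector, and all levels were low. How often genes this scarce separate in this way was not counted. Il6, the gene of interleukin-6, stood at 0.207, 0.267 and 0.716 on the miR-181 injected sides, against 0.116, 0.0575 and 0.150 on the uninjected sides. With GFP it stood at 0.545, 0, 0.0487 and 0.258 on the injected sides. The GFP uninjected sides had 0.437, 0.249, 0, 0.179 and 0.425, so these groups overlapped.

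Of 10 other receptors of the TNF and interleukin-1 families, 1 fell with miR-181 and none rose. It was Tnfrsf21, the death receptor DR6, with 38.9, 28.5 and 34.6 units on the injected sides, against 49.9, 47.3 and 52.7 on the uninjected sides (log2 -0.56 ± 0.11; limma adjusted p = 0.0381). With GFP it stood at 49.0, 49.0, 50.4 and 49.5 on the injected sides, against 46.1, 49.2, 50.3, 48.7 and 50.6 on the uninjected sides (log2 0.01 ± 0.04). Cd40, a receptor of B cells and myeloid cells, had 5.05 ± 2.82 on the injected sides, against 1.36 ± 0.334 on the uninjected sides with miR-181, which did not pass (adjusted p = 0.0827 by limma). The estimate for Ltbr, the lymphotoxin beta receptor, was 0.59 ± 0.16 with miR-181 (limma adjusted p = 0.0930). With GFP, Cd40 and Ltbr had estimates of 0.91 ± 0.28 and 0.14 ± 0.16 (limma adjusted p = 0.249 and 0.835).

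Of 13 adaptors, 2 rose with miR-181 and none with GFP. They were Irak4, the kinase that starts signalling from interleukin-1 and Toll-like receptors (log2 0.69 ± 0.14; limma adjusted p = 0.0397), and Birc3, a ubiquitin ligase recruited to TNF receptors (log2 1.19 ± 0.24; limma adjusted p = 0.0398). Birc3 stood at 10.4 ± 3.54 on the injected sides, against 4.17 ± 0.710 on the uninjected sides of miR-181 mice, and at 3.39 ± 0.705 on the injected sides, against 3.41 ± 1.09 on the uninjected sides of GFP mice. Myd88, the adaptor of the same receptors as Irak4, had an estimate of 0.78 ± 0.20 with miR-181 (limma adjusted p = 0.0711). With GFP, Irak4 and Myd88 had estimates of 0.37 ± 0.16 and 0.11 ± 0.08 (limma adjusted p = 0.511 and 0.743). Of the 3 genes for the enzyme complex that builds linear ubiquitin chains, the catalytic one, Rnf31, rose with miR-181 (log2 0.61 ± 0.10; limma adjusted p = 0.0187), while Sharpin and Rbck1 had estimates of 0.20 ± 0.07 and 0.12 ± 0.05 and did not pass.

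Of 10 kinase genes, Ikbke, a kinase related to the IκB kinases, alone rose with miR-181, by 0.87 ± 0.16 log2 units (limma adjusted p = 0.0281), and none rose with GFP. Tab2, which ties an upstream kinase to ubiquitin chains, and Chuk, the IκB kinase α, had estimates of 0.24 ± 0.06 and 0.13 ± 0.05 with miR-181. None of the 4 other Rel and IκB genes passed with either vector. Nfkbid, Rel and Nfkbiz had estimates of 0.82 ± 0.27, 0.46 ± 0.20 and 0.36 ± 0.22 with miR-181. None of the 8 tested brakes passed either. Zfp36, which destabilises cytokine RNAs, came nearest with 0.74 ± 0.18 (limma adjusted p = 0.0577), and Otulin and Tnip1, which act on ubiquitin chains, had estimates of 0.25 ± 0.08 and 0.24 ± 0.09.

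Of the nuclear import genes, Kpna4 encodes importin α3, which carries NF-κB into the nucleus and is known as a target of miR-181b in vascular endothelium. No match to the seed was found in its longest annotated mouse 3′ UTR, of 6940 bases. Kpna4 stood at 34.1 ± 0.545 on the injected sides, against 29.9 ± 0.695 on the uninjected sides of miR-181 mice (log2 0.19 ± 0.05; limma adjusted p = 0.0801). It stood at 23.9 ± 1.93 on the injected sides, against 25.7 ± 0.954 on the uninjected sides of GFP mice (log2 -0.10 ± 0.06). Neither change passed, and Kpna3, a related importin, had estimates of -0.04 ± 0.07 with miR-181 and -0.07 ± 0.07 with GFP.

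**Figure D5:**
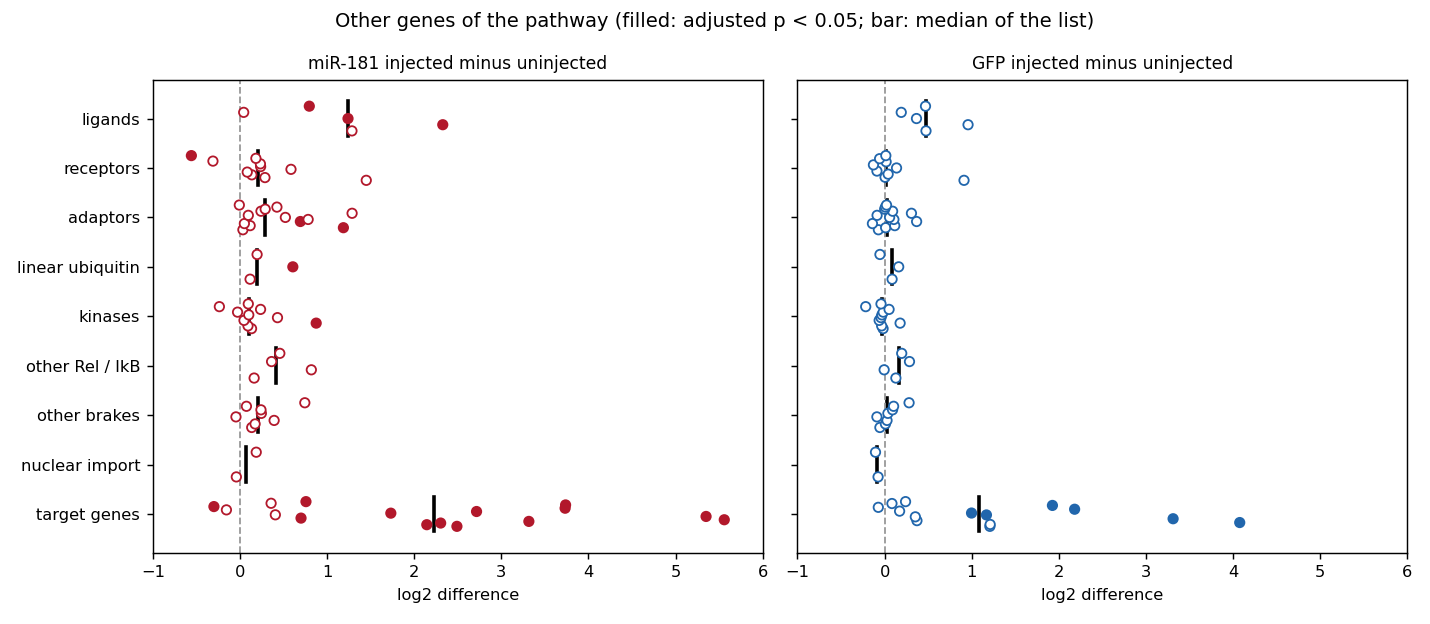
Estimated log2 differences (horizontal axis) of the tested genes in 9 other lists of the pathway, for miR-181 injected minus uninjected sides (left) and GFP injected minus uninjected sides (right). Each point is a gene, filled where the adjusted p was under 0.05, and black bars are list medians; filled points gather in the target genes and ligands, with medians of 2.22 and 1.24 with miR-181.

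The authors' deposited table gives 2 tests per gene. By the first, 7 of the 10 genes were higher with miR-181 at a q-value under 0.05, where 6.55% of the 17950 genes with a q-value were. The 3 that were not were Nfkb2 (q = 0.0721 in the authors' deposited table), Rela (0.0760) and Nfkbia (0.183). By the second, 3 were, the same 3 that passed with limma, where 4.04% of genes were. With GFP, Tnfrsf1b alone was higher in the authors' deposited table by either test, where 1.96% and 1.16% of 16083 genes were. The mean log counts behind the 10 genes were turned back from a natural log. They ran from 23.5 for Bcl3 to 1264 for Nfkb1 in the miR-181 table and from 8.08 to 493 for the same genes in the GFP table.

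Across the 15 libraries, each set against the mean of its own uninjected libraries, the genes outside the 10 whose profile was most like their mean were Msn (r = 0.991), Ly6e (0.985), Stat3 (0.982), Ctsb (0.979) and Ctsc (0.978), out of 14824 genes compared. Within the 10 the correlation with that mean ran from 0.700 for Rela to 0.952 for Bcl3. These coefficients are descriptions across libraries that share mice, library sets and sides, and each of the 10 genes is part of the mean it is compared with.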

How the data were processed

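PolyA RNA of 15 substantia nigra libraries was sequenced as stranded pairs of 75 bases (miR-181 set) or 50 bases (GFP set), per the labels' protocols. The tools were kallisto 0.43.1 and sleuth 0.30.0 and the build GRCm38, per the submitters' processing notes. The authors deposited a signal for each library, read here from its sums as TPM divided by 1 size factor per library. The coefficients, errors and mean log counts that the authors deposited were read as natural log values. Estimated counts given here are exponentials of these mean log counts, not means of the counts. No header names the base; the median ratio of called coefficients to the log2 change was 0.7175 (miR-181) and 0.741 (GFP), near the 0.6931 of a natural logarithm. Their q-values from both tests are used as deposited. Summed over genes, the exponentials of the mean log counts reached 22.0 (miR-181) and 9.65 (GFP) times 1e+06. Values carry no counting intervals. The planned test assumed TPM and was kept.

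Rows that repeated a gene were left out (396 and 403 in the miR-181 and GFP tables). Genes averaging 1 unit or more were fitted on the scale of log2(value + 0.5) by limma-trend (limma 3.58.1, R 4.3.3), and p-values were adjusted over all of them by the Benjamini-Hochberg method, at 0.05. On that scale the fold of a scarce gene comes out too small. Each side against the other was fitted within its table; the difference was tested on the changes of 3 miR-181 and 4 GFP mice, with the trend on mean level. The fits were tested on simulated data. Both sides of a mouse are the same animal per the labels, so mouse numbers pair the libraries; the sides' deviations from their group means had correlations of 0.183, 0.140 and 0.257 (miR-181 mice 1, 2 and 3) and of 0.190, 0.0994, 0.0333 and 0.121 (GFP mice 1 to 4). The fit without a mouse term is the one reported and the block an alternative, which for GFP leaves out mouse 5. Mice are separate animals with 1 library per side. Other alternatives were pseudocounts of 0.1 and 1, no filter, a mean of at least 5, median centring, quantile normalization, no trend, each library left out, and the trend on the mean change, added after the data were seen.

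The 10 genes and all lists were chosen with earlier results of these data known. The 3 genes of each pathway list with the smallest p with miR-181, and the 5 genes most alike, are named by rule. Of the pathway lists, Sod2, Bcl2a1a, Bcl2a1b, Bcl2a1d, Icam1, Vcam1 and Csf1 were named outside this rule, with their results known. So were Tnf, Il1b and Il6. Gene positions and 3′ UTRs are from GENCODE M21 (GRCm38). Seeds and motifs were searched with Python 3.11.15, numpy 2.4.6 and pandas 2.3.3, and figures drawn with matplotlib 3.10.9.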

Additional observations from a re-analysis of the deposited data

Results flagged for a closer look

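Rela stood at 28.2 units in the uninjected library of GFP mouse 1, while the nearest of the other 4 uninjected GFP libraries stood at 21.3. The gap between them took up 0.848 of the range of the group, which set this library apart from the others. It is the library in which Prl and Gh made up 4.70% of all units. Of 20 groups of 4 or 5 libraries examined for the 10 genes, 1 had a library set apart in this way, and chance gives about 1 in 20. Without both libraries of GFP mouse 1 the GFP estimate for Rela was 0.37 ± 0.09 on the log2 scale (SE; limma adjusted p = 0.173), against 0.28 ± 0.11 with them (limma adjusted p = 0.433).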

How the results depend on the processing

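Of 468 recomputed estimates of the 10 genes, 439 kept their direction and their side of the threshold, 17 lost a call, 7 gained one and 5 changed sign. The sign changes were in estimates near 0. The Nfkbie change with GFP was -0.00067 with quantile normalization, and leaving out each library in turn gave -0.027 to 0.15. The Rela difference between vectors was -0.026 with median centring and -0.090 without GFP mouse 1. For the difference between vectors, the fit without GFP mouse 1 was entered under more than 1 setting, so its estimates are repeated among the 468. Of the 10 genes, 3 passed with miR-181, but 0 without the filter on low values and 0 to 9 with each library left out in turn. With GFP 1 passed, but 0 at a mean of at least 5, where Tnfrsf1b was not tested, and 1 to 2 with each library left out. The calls among all genes moved as follows. With miR-181 there were 908, of which 678 higher, but 315 without the filter, 449 without the trend, and 117 to 1924 with each library left out; median centring gave 1102, of which 634 higher. With GFP there were 206, but 136 at a mean of at least 5 and 108 to 255 with each library left out. The difference had 1 call, but 4 at a mean of at least 5, 0 without the trend, 0 with the trend on the mean change, and 0 to 319 with each mouse left out (0 without GFP mouse 1).

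With mouse as a replicate block, 718 genes passed with miR-181, of which 570 higher, and 135 with GFP, of which 133 higher. The GFP block also leaves out the unpaired library of mouse 5, and without that library and with no block 108 genes passed. Of the 10 genes, the block left 3 with miR-181 and 0 with GFP, where Tnfrsf1b came to an adjusted p of 0.0540 by limma (0.0145 without mouse 5 and with no block); it changed no other call among the 10. The cause of these shifts was not tested. The number of mice and the scarce Bcl3, Tnfaip3 and Nfkbie limit the precision.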

Other observations

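Among the 71 other pathway genes tested with miR-181, 18 (25.4%) held at least 1 match to all 7 bases of the miR-181 seed in their longest annotated 3′ UTR, against 19.4% of all tested genes with such a UTR. With matches to bases 2 to 7 followed by an A counted as well, 23 (32.4%) held one, against 24.8%. The 2 that fell, Sod2 and Tnfrsf21, both held a full match, Tnfrsf21 with an A after it and Sod2 as 2 matches of 7 bases in a UTR of 4963 bases. Of the 19 that rose, 4 held a full match, namely Icam1, Irf1, Tnfsf10 and Vcam1, and Ltb held matches of the second kind. These counts were drawn up after the values were seen, and no test was made of them. Icam1 and Vcam1, adhesion molecules that leukocytes bind on vessel walls, rose with miR-181 by 1.73 and 0.76 on the log2 scale (limma adjusted p = 0.0147 and 0.0352). With GFP, Icam1 rose by 1.17 (limma adjusted p = 0.00851), and Vcam1 had an estimate of 0.24 (limma adjusted p = 0.207). Csf1, a growth factor of microglia and macrophages, rose by 0.70 with miR-181 (limma adjusted p = 0.0261) and had an estimate of 0.37 with GFP (limma adjusted p = 0.114).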
